A study of Mus musculus with 4 samples.

Results

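Zfp genes encode proteins with zinc finger domains, mostly of the C2H2 type that reads DNA. The genes described here are the protein-coding mouse genes whose symbol is Zfp followed by a digit and whose start or end had open chromatin nearby. Open chromatin means a merged region, called in at least 1 of 4 ATAC-seq peak lists, that lay within 1 kb of either gene end (GRCm38 RefSeq). Of 397 such Zfp genes, 233 had a region and 164 had none. The 233 open genes carried 244 of the 15328 merged regions of the series. Among all 21883 protein-coding genes, 39% had a region by the same rule. The peak calls chose the open genes, so this count and the strength of their regions are descriptions and were not tested.

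ATAC-seq marks accessible DNA by the insertion of sequencing adapters with a transposase. The cells were G1ER, a mouse erythroblast line of Gata1-null origin that carries GATA1 fused to an estrogen receptor domain, grown with erythropoietin and stem cell factor and given no treatment per the labels. Wild-type cells were compared with Chd7-/- cells, which lack a chromatin remodelling helicase of the chromodomain family. Each genotype had 2 libraries of 50000 cells, replicate 1 labelled 1 h and replicate 2 labelled 2 h. The extraction protocol gives a range of 1 to 2 h for the transposase step, and the labels do not say whether their time is that step. Both knockout libraries carry 1 cell code in their labels, so loss of Chd7 and the clone cannot be told apart. The labels do not say that replicates were separate cultures, and the spread between them may be technical.

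The peak lists held 11084 to 12443 nuclear peaks. Total reads were unknown. The lowest background behind the peaks was 0.787 fragments per base in wild-type replicate 1 and between 1.01 and 1.08 in the others. Of the erythroid genes checked for the cell type, Epor, Tal1, Tfrc, Hemgn and Nfe2 had a region at an end, while Gata1, Klf1, Alas2, Slc4a1 and Ermap did not. The number with a region was 0 of 6 for myeloid, 0 of 6 for lymphoid, 0 of 3 for liver and 0 of 3 for neural genes. Among megakaryocyte genes it was 1 of 4, at Gp9.

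Many C2H2 genes arose by tandem duplication and sit in chromosomal clusters. A large share of the mammalian family carries a KRAB domain, which recruits the corepressor TRIM28 and histone methyltransferases, and many such proteins silence transposable elements or protect imprinted genes. Others are activators, RNA-binding proteins or mitotic factors. The symbol Zfp therefore joins proteins of unlike function, including the CCCH proteins of mRNA decay.

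The promoter windows below show the range of base composition that the results turn on. Each is a RefSeq sequence (GRCm38.p6) from 250 bases before to 50 after the listed start nearest the gene's outer end, read 5′ to 3′ on the gene's strand, with CpG dinucleotides in capitals. Zfp318 (chr17:46383516-46383815, plus strand, 49 CpG) and Zfp143 (chr7:110061452-110061751, plus strand, 18 CpG) had the strongest regions by their rank of fold enrichment. Zfp420 (chr7:29859762-29860061, plus strand, 11 CpG) was called in the knockout libraries alone, and Zfp760 (chr17:21707491-21707790, plus strand, 12 CpG) in the wild-type libraries alone. Zfp618 (chr4:62965317-62965616, plus strand, 59 CpG) and Zfp352 (chr4:90218570-90218869, plus strand, 2 CpG) had the most and the fewest CpG among Zfp genes with no region anywhere in the gene, the fewest being shared with Zfp626 and Zfp735.
Zfp318: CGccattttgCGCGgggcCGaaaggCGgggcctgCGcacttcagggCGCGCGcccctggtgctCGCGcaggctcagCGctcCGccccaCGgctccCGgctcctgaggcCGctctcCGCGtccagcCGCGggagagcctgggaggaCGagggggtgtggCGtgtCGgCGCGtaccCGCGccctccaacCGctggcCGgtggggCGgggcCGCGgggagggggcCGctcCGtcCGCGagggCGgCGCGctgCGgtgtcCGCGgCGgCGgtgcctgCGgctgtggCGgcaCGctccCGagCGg
Zfp143: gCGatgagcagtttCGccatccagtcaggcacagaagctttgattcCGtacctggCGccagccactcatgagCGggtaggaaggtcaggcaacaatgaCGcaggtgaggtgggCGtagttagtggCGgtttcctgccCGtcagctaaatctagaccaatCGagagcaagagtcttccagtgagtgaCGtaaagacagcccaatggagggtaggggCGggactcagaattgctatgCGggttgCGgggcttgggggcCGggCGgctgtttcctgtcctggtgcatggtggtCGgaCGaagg
Zfp420: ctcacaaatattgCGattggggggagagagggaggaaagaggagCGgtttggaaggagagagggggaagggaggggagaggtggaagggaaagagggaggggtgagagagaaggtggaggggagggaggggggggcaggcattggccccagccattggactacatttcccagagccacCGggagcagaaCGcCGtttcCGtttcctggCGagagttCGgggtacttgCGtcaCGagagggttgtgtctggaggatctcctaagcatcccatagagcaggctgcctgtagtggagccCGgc
Zfp760: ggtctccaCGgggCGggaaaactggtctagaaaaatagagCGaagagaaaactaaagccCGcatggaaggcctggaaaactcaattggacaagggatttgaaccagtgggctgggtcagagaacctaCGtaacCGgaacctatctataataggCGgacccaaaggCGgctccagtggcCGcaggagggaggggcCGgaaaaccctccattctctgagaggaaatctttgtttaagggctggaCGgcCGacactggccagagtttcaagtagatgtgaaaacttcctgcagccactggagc
Zfp618: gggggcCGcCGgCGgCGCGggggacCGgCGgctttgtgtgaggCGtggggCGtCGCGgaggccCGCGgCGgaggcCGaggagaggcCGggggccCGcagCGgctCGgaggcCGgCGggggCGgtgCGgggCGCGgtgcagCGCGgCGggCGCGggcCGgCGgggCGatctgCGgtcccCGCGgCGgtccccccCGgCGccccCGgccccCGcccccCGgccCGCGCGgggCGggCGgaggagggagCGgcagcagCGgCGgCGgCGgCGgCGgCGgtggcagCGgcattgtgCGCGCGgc
Zfp352: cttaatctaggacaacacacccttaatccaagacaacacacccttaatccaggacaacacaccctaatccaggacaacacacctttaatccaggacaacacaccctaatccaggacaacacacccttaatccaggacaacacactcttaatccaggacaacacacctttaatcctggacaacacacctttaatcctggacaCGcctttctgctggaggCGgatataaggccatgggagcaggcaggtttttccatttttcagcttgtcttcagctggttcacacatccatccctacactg

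The open regions lay at gene starts. Strand was known for 200 of the 233 open genes from the promoter table. Start here means the outer bound of the annotated gene on that strand, which need not be a listed start. The best region (called in most libraries, then strongest) was at the start in 197 of the 200 (98.5%). It was at the other end in 3, namely Zfp771, Zfp773 and Zfp512b. Over all open protein-coding genes the start held 95%. The summit, the highest point of a peak, lay just upstream of the nearest listed start, at a median offset of -38.2 bp (quartiles -75.1 and 6.25, negative upstream). It was within 250 bp of that start in 178 of 200 genes (89.0%). In 9 genes it lay over 1000 bp away. Among these were Zfp638 (-47268.5 bp) and Zfp217 (-9056 bp), whose regions lay at the outer bound of the gene. Most open Zfp starts were not shared: 39 of 233 best regions (16.7%) also touched the 1 kb window of another protein-coding gene, against 32.6% over all open genes.

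**Figure D1:**
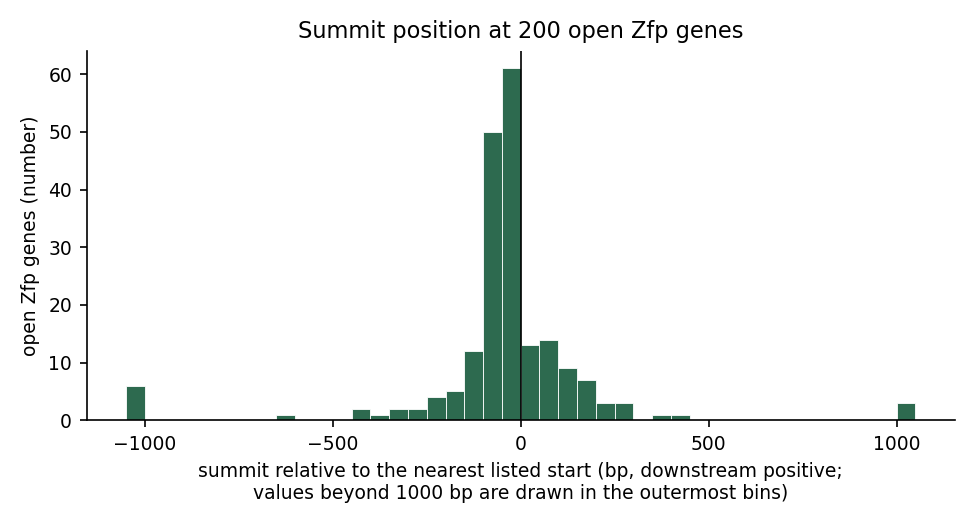
Position of the peak summit relative to the nearest listed start of the gene (bp, downstream positive) at 200 open Zfp genes, as the median over the libraries with a call. Most genes fall in the bins just upstream of the start, and 9 lie more than 1000 bp away.

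Most open Zfp genes were called in every library. Of the 233, 171 (73.4%) were called in all 4 libraries, 20 in 3, 22 in 2 and 20 in 1, whereas 82.0% of all open protein-coding genes were called in all 4. By region, 169 of 244 (69.3%) were called in all 4, beside 76.8% of the 7750 regions at any protein-coding gene end and 56.8% of all regions. Fold enrichment, the deposited ratio of fragments to background where a peak is highest, had medians of 8.67 and 8.55 in the wild-type libraries. In the knockout libraries the medians were 8.48 and 8.03, each time with replicate 1 first. The medians over all gene-end regions were 9.38, 9.27, 9.02 and 8.71 in the same order. In every one of the 4 lists 22 regions at open Zfp genes (9.02%) ranked in the strongest 25%, beside 18.4% of all gene-end regions. Fold enrichments and ranks are the authors' values, and each list was called on its own.

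Strength was taken as the rank of fold enrichment within a list, in the library where that rank was lowest. By this measure the strongest region was at Zfp318, known from the choice between IgM and IgD in B cells (chromosome 17, 46383254 to 46384074). Its fold enrichments were 16.2 and 14.3 in wild type against 17.6 and 14.9 in knockout. Zfp143, an activator that binds many promoters and chromatin loop anchors, followed (chromosome 7, 110061142 to 110062109) with 14.5, 16.4, 16.0 and 13.8. In both genes the ranges of the genotypes overlapped. Zfp654, Zfp277, Zfp639, Zfp972, Zfp408, Zfp142, Zfp706, Zfp317, Zfp120 and Zfp869 completed the 12 strongest by this rank, and other measures order them otherwise: Zfp654 had larger pileups (73, 86, 93 and 95) than Zfp318 (72, 75, 83 and 62). Of these 12, the regions at Zfp654, Zfp277, Zfp408, Zfp142 and Zfp706 also touched the end of a neighbouring gene that is no Zfp gene. The log2 genotype difference of the 12, defined further down, ran from -0.24 at Zfp142 to 0.32 at Zfp654, with the smallest adjusted p = 0.675 by limma.

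At the other extreme, the highest rank that Zfp780b reached in any list was the 3.85th percentile of fold enrichment, and Zfp553 reached 4.88, Zfp850 5.95, Zfp410 6.66, Zfp953 7.57 and Zfp27 12.1. Zfp780b, Zfp850, Zfp953 and Zfp27 rest on a call in 1 library. Around the limit of 1 kb, the farthest regions counted were 988 bp from Zfp688 and 874 bp from Zfp219, and the nearest ones left out were 1093 bp from Zfp41 and 1143 bp from Zfp369. With the limit at 500 bp there were 225 open genes, and with calls required in 2 libraries 213.

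Promoters of open Zfp genes held more CpG than those of the other Zfp genes, and fewer than those of open genes in general. The promoter table matched 331 of the 397 Zfp genes. The median number of CpG per 300-base window was 15 (quartiles 9 and 21) in 200 open genes and 10 (6 and 19) in 131 genes without a region. The observed over expected CpG ratio corrects for the content of C and G. Its median was 0.658 in open Zfp genes and 0.521 in those without a region, so the sets overlapped broadly. Other protein-coding genes were further apart, at 0.813 when open and 0.300 when not. Zfp genes called in all 4 libraries had a median of 0.689 and those called in 1 to 3 libraries 0.564.

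At low CpG, a larger share of Zfp genes than of other genes was open. Of 59 Zfp genes with a ratio from 0.2 to 0.4, 27 were open (45.8%), against 12.6% of 2777 other genes. In the next interval, up to 0.6, the shares were 59.8% of 82 Zfp genes and 33.1% of 2112 others. The 2 sets met at high CpG: with a ratio of at least 0.8, 70.0% of 80 Zfp genes and 72.7% of 4904 other genes were open. These shares describe genes of unequal GC content and length and were not tested.

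**Figure D2:**
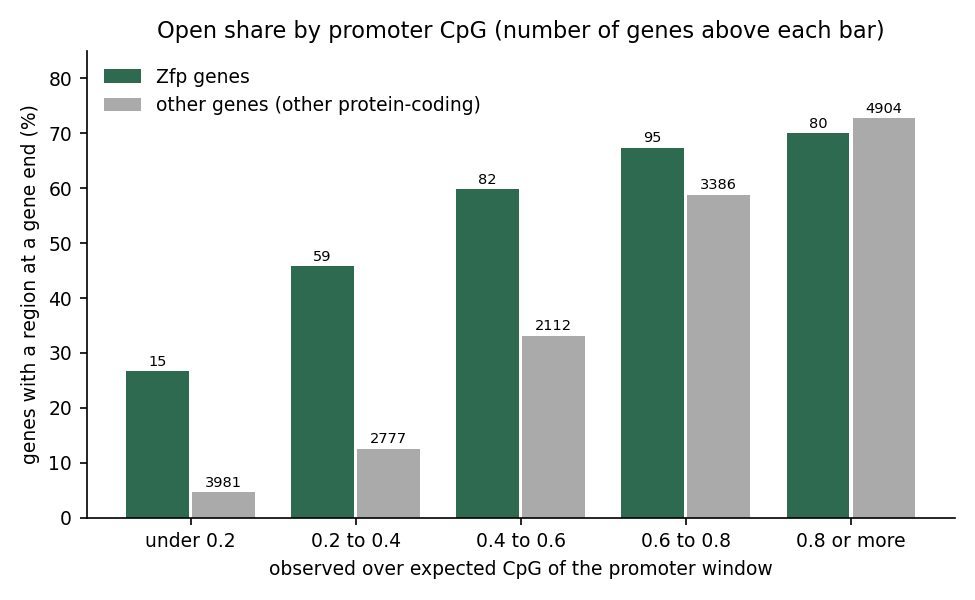
Share of genes with a region within 1 kb of a gene end (%), by observed over expected CpG of the promoter window, for Zfp genes and other protein-coding genes, with the number of genes above each bar. From 0.2 to 0.4 the share was 45.8% for Zfp genes and 12.6% for others, and at 0.8 or more the bars are of like height.

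Short motifs were searched on both strands of the same windows. The NFY box CCAAT was present in 54.0% of open Zfp promoters and 42.7% of those without a region, beside 39.2% of all promoters. The ETS core GGAAGT was found in 39.0% and 36.6% (25.1% of all). The SP and KLF box GGGCGG, which itself contains a CpG, was in 48.5% and 38.2%, beside 46.3% of all promoters and 69.1% of those of other open genes. The GATA motif AGATAA was in 10 of 200 open Zfp promoters (5%) and 19 of 131 without a region (14.5%), beside 9.94% of all promoters and 5.96% of those of other open genes. The RUNX core TGTGGT was in 15% and 19.1%, beside 15.1% of all. Of the rarer words, the NRF1 core GCATGCGC was in 5.5% and 4.58% (3.60% of all), the YY1 word AAGATGGC in 6% and 3.82% (3.21% of all) and the CRE palindrome TGACGTCA in 4% and 2.29% (2.33% of all). The CTCGCGAG palindrome of the ZBTB33-type element was in 1% and in 0 of 131 (1.31% of all). Of the windows printed above, those of Zfp143, Zfp420 and Zfp760 held CCAAT, that of Zfp760 also GGAAGT, those of Zfp318, Zfp143, Zfp760 and Zfp618 GGGCGG, and that of Zfp352 none of the 9 motifs. A match is a run of letters and not a bound site.

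The 164 Zfp genes without a region at an end were not all without open chromatin. In 19 of them a region overlapped a listed start that lay inside the annotated gene, and in 13 of the 19 genes a region was called in all 4 libraries. Zfp708, Zfp341, Zfp558, Zfp821 and Zfp61 were among the 13, and Zfp445, a guardian of imprints, had its inner region in 3 libraries. A further 24 had a region elsewhere in the gene and 121 had none. Counting listed starts as well as ends gave 252 open Zfp genes (63.5%). The choice of Zfp445, Zfp708, Zfp341, Zfp558, Zfp821 and Zfp61 as examples was made after their values were seen. Median gene length was 16779 bp in open genes and 19568 bp in the others.

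Clusters differed widely. Zfp genes within 500 kb of each other formed 34 clusters of at least 3, which together held 239 genes. Inside them 145 of 239 were open (60.7%), and outside them 88 of 158 (55.7%). Counting calls in all 4 libraries alone turned this order, with 41.8% inside and 44.9% outside. Every gene was open in 6 clusters and 0 genes in 2 clusters. Of 237 other protein-coding genes lying within the clusters, 35.9% were open, near the background of 39%. A cluster with few calls need not be closed chromatin. How reads that match several places were handled is not given, and their part in missing calls was not tested.

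The largest cluster ran from Zfp640 to Zfp273 on chromosome 13 (66670274 to 67827000), with 14 of 24 genes open, 9 of them in all 4 libraries. Of its 10 remaining genes, Zfp708, Zfp759, Zfp458, Zfp595 and Zfp874b had a region over a listed start inside the gene. On chromosome 17 the cluster from Zfp160 to Zfp13 (21008941 to 23599755) had 17 of 23 Zfp genes open, 13 of them in all 4 libraries, and Zfp229 had a region over an inner start. Of the 16 other protein-coding genes inside its bounds 1 was open. A second cluster on that chromosome, from Zfp871 to Zfp414 (32765496 to 33631716), had 8 of 13 open, of which 3 were called in all 4 libraries.

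By calls in at least 1 library, the shares of 2 clusters on chromosome 7 were far apart. By calls in all 4 libraries they were close, at 4 of 15 genes from Zfp84 to Zfp146 and 3 of 14 from Zfp180 to Zfp526. From Zfp84 to Zfp146 (29768552 to 30169775), 12 of 15 genes were open, and Zfp790, Zfp14 and Zfp260 had no region at an end, Zfp790 with one over an inner start. Of these 12, 4 were called in all 4 libraries, and 8 were called in 1 to 3. From Zfp180 to Zfp526 (24081877 to 25227876), 3 of 14 were open, at Zfp180, Zfp94 and Zfp526, all in 4 libraries. Zfp61 and Zfp93 had a region over a listed start inside the gene, which would make 5 of 14, and the region of Zfp574 lay 1181 bp from its end. The median CpG ratio there was 0.755 for the 3 open genes and 0.494 for the 8 others with a promoter entry. In the chromosome 13 cluster it was 0.488 for open genes and 0.506 for the rest, so open genes did not have the higher ratio in every cluster.

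The cluster from Zfp990 to Zfp933 on chromosome 4 (145510759 to 147849126) had 2 of 16 genes open, or 3 with Zfp984, where a region called in all 4 libraries covered a listed start inside the gene. Zfp991 was called in wild-type replicate 2 and knockout replicate 1, with 17 and 21 fragments at the summit, and Zfp933 in all 4 libraries, with 20, 17, 29 and 13. Genes of this cluster without a region at an end included Zfp600 and Zfp992, listed here among silencers of retroelements. Zfp600 had 1 region elsewhere in the gene, called in 3 libraries, and Zfp992 had 2, each called in 1 library. Another was Zfp993, whose annotated span of 478623 bp held 10 regions away from its ends, each called in 2 libraries at most. All 6 genes from Zfp354c to Zfp354a on chromosome 11 (50811085 to 51072799) lacked a region at an end. So did the 3 from Zfp445 to Zfp105 on chromosome 9, where Zfp445 had a region over an inner start.

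**Figure D3:**
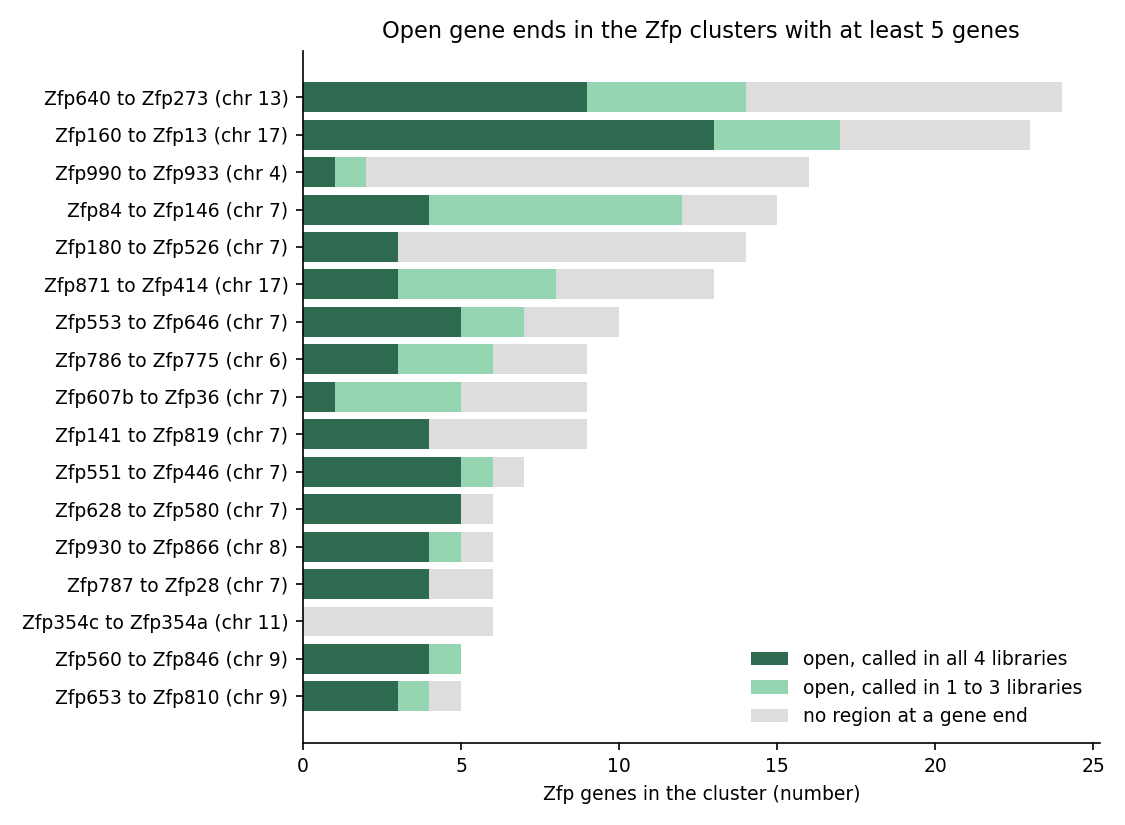
Number of Zfp genes in each cluster of at least 5 genes, divided into genes called at an end in all 4 libraries, in 1 to 3 libraries and in none. All 5 genes were open from Zfp560 to Zfp846 and 12 of 15 from Zfp84 to Zfp146, and 0 of 6 from Zfp354c to Zfp354a.

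Grouped by role, 7 of 8 genes listed as factors of promoters and chromosome structure had a region, each in all 4 libraries, with Zfp106 the exception. The list is a loose one, and not every gene on it has that role. Among all 397 Zfp genes 58.7% were open, and 171 in all 4 libraries. The 7 open genes of the list were Zfp143, Zfp384, Zfp740, Zfp219, Zfp830, Zfp207, which loads the checkpoint protein BUB3 on kinetochores, and Zfp91, a ubiquitin ligase. The number of fragments covering the summit, called pileup here, was 60 and 64 in wild type against 69 and 49 in knockout at Zfp91. It was 23 and 22 in wild type against 20 and 14 in knockout at Zfp207, where the genotypes did not overlap but the difference did not pass (adjusted p = 0.716 by limma).

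Of 12 blood and growth regulators 9 were open, 7 of them in all 4 libraries, beside the same 58.7%. Zfp148, which binds GC-rich DNA, had pileups of 28 and 35 in wild type against 33 and 21 in knockout. Zfp281, a regulator of pluripotent cells, had 40, 51, 62 and 38. Zfp217, amplified in breast cancer, was called in wild-type replicate 2 alone, and Zfp608 in both libraries labelled 1 h (pileups of 12 and 14). Zfp521, a corepressor of immature blood cells, Zfp423 and Zfp652 had no region at an end.

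The CCCH genes Zfp36l1 and Zfp36l2, whose proteins bind AU-rich elements and promote mRNA decay, were open in all 4 libraries. Zfp36, which encodes tristetraprolin, and Zfp36l3 were not. Pileups at Zfp36l1 were 47 and 44 in wild type against 37 and 36 in knockout. Of 13 imprint and retroelement silencers 4 were open (58.7% of all Zfp genes were). Zfp809, which silences murine leukaemia virus, had pileups of 16 and 19 in wild type against 15 and 14 in knockout, and Zfp932 had 29, 33, 44 and 26. Zfp568 was called in all but knockout replicate 2 and Zfp383 in wild-type replicate 1 alone. Zfp57, which protects imprints, and Zfp42, a marker of pluripotent cells, were among the 9 without a region at an end. Of these 9, Zfp708 and Zfp445 had a region over a listed start inside the gene, called in 4 and 3 libraries. With listed starts counted as well as ends, 63.5% of all Zfp genes were open.

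The number of open Zfp genes overlapped between genotypes. It was 200 and 210 in the wild-type libraries against 206 and 195 in the knockout libraries, replicate 1 first. Means were 205 ± 7.07 (SD, n = 2) and 200.5 ± 7.78 (SD, n = 2), a difference of -4.5 with exact two-sided permutation p = 0.667. The smallest p that 2 libraries against 2 can give is 0.333. Over all protein-coding genes the shares open in these libraries were 35.4%, 36.5%, 35.8% and 35% in the same order. Without wild-type replicate 2 the difference was 0.5, and without knockout replicate 2 it was 1, both of the opposite sign.

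Few regions of open Zfp genes belonged to 1 genotype. Called in both knockout and neither wild-type library were 4 of 244 (1.64%), beside 1.05% of all gene-end regions and 2.71% of all regions. Called in both wild-type and neither knockout library were 6 of 244 (2.46%), beside 1.77% and 2.25%. Both shares were near the background. A missing call means that no peak passed the authors' threshold there, and not that the site was shut.

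The knockout-only regions were at the starts of Zfp239, Zfp420, Zfp74 and Zfp948. Pileups in knockout replicates 1 and 2 were 16 and 14 at Zfp239, 13 and 10 at Zfp420, 11 and 9 at Zfp74, and 10 and 8 at Zfp948. Zfp420 and Zfp74 belong to the chromosome 7 cluster of Zfp84, where most open genes were called in some libraries only. The wild-type-only regions were at Zfp760, Zfp692, Zfp970, Zfp638, Zfp395 and Zfp512b. In wild-type replicates 1 and 2 their pileups were 16 and 16 at Zfp760 and 13 and 13 at Zfp692. They were 11 and 17 at Zfp970, 10 and 13 at Zfp638, 11 and 9 at Zfp395, and 16 and 11 at the start of Zfp512b. The protein of Zfp638 silences unintegrated retroviral DNA. Zfp512b also had a separate region 730 bp from its far end, called in every library but the first wild-type replicate. Wild-type replicate 1 had a call of its own beside that region (181581540 to 181581762, pileup of 10). At the start of Zfp512b, knockout replicate 1 had a separate call (181593031 to 181593238, pileup of 11) next to the wild-type-only region (181592579 to 181592955). Requiring −log10 q of 5 or more throughout left 2 regions in the knockout class and 7 in the wild-type class, while leaving out 1 library gave 5 to 13 and 9 to 16.

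Signal strength was compared for the 169 regions called in all 4 libraries, within a limma comparison of 8704 of the 8705 such regions of the series, 1 having no recovered pileup. Values were log2(pileup + 1) with the median of each library set to 0. After Benjamini-Hochberg adjustment 0 of the 169 passed, as did 0% of all regions in either direction, and the smallest adjusted p among the 169 was 0.363. At an unadjusted p under 0.05 limma counted 8 of 169 higher and 13 lower in knockout, beside 5.03% and 3.68% of all regions. As a share of the 169, the lower count was above that of all regions and the higher count was not. This contrast was not tested. Both knockout libraries lay above both wild-type libraries in 39 of 169 (23.1%, beside 21.4% of all regions) and below them in 33 (19.5%, beside 17.3%). The median difference over the 169 regions was 0.038, beside 0.023 over all regions. Taken the other way, as the difference between library medians of the 169, it was -0.037 (exact permutation p = 0.333), of the opposite sign.

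Among regions higher in knockout, Zfp110, whose protein binds a neurotrophin receptor, had the largest difference. Its pileups were 13 and 19 in wild type against 36 and 18 in knockout, a log2 difference of 0.75 (SE 0.26, adjusted p = 0.464 by limma). The excess lay mainly in knockout replicate 1, without which the difference was 0.35. Zfp84 had 9 and 13 in wild type against 16 and 19 in knockout (0.72, SE 0.21), and here the genotypes were apart. Zfp35 had 9 and 10 against 15 and 14, with a difference of 0.64. Zfp180, Zfp457 and Zfp619 followed with 0.63, 0.62 and 0.51.

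Among regions lower in knockout, Zfp873 had pileups of 19 and 16 in wild type against 9 and 8 in knockout. Its log2 difference was -0.88 (SE 0.21, adjusted p = 0.363 by limma), the largest of the 169 in size. Zfp335, a regulator in T cells and neural progenitors, had 36 and 31 against 21 and 17, a difference of -0.71. The genotypes did not overlap at either gene. Zfp382 had 15 and 25 against 12 and 10 (-0.69), Zfp609 16 and 19 against 10 and 11 (-0.60) and Zfp85 15 and 17 against 11 and 9 (-0.55). The Zfp609 region also touched the end of Trip4. Zfp36l2, which sustains self-renewal of early erythroid progenitors, had 49 and 54 in wild type against 35 and 31 in knockout (-0.55, SE 0.18, adjusted p = 0.423 by limma).

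Scaling by each library's lowest background in place of its median moved the median difference of all regions from 0.023 to -0.21. Under it 70 of all 8704 regions passed in limma, 5 higher (0.0574%) and 65 lower (0.747%) in knockout. Among the 169, 3 passed in limma, Zfp873 (adjusted p = 0.00799), Zfp335 (0.0401) and Zfp382 (0.0451), all lower in knockout. This scaling moves every region by the same amount.

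**Figure D4:**
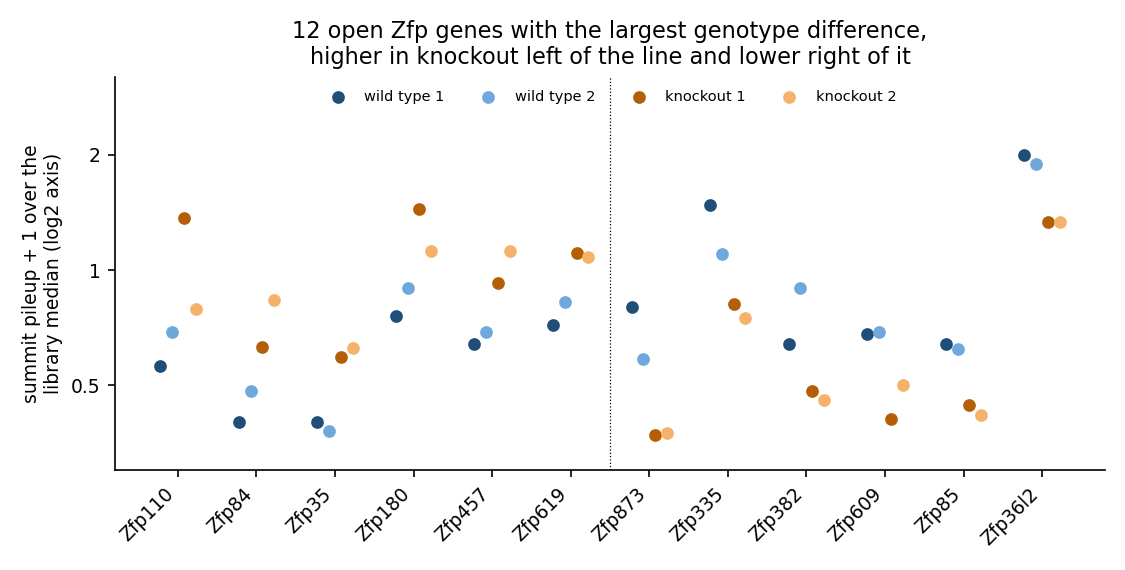
Summit pileup plus 1 over the library median (log2 axis) in each library for the 6 open Zfp genes highest and the 6 lowest in knockout, of regions called in all 4 libraries. The points of Zfp873 at 9 and 8 fragments in knockout lie below those at 19 and 16 in wild type, and at Zfp110 knockout replicate 1 stands above the other libraries.

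**Figure D5:**
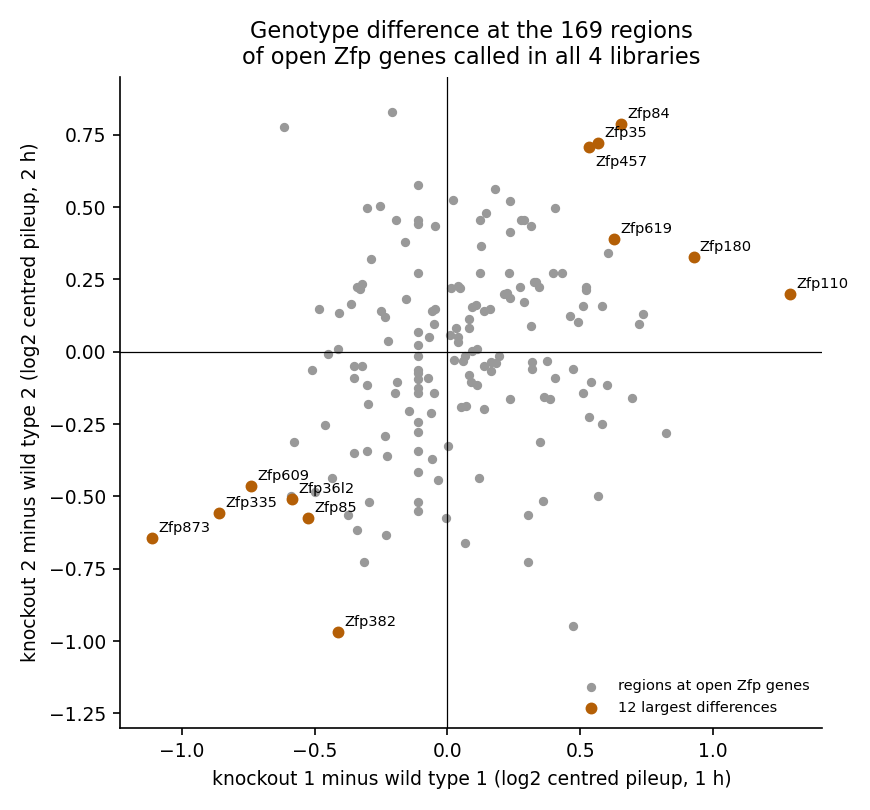
Difference in centred log2 pileup, knockout minus wild type, for replicate 1 (1 h, horizontal) and replicate 2 (2 h, vertical) at the 169 regions of open Zfp genes called in all 4 libraries. Of these, 54 (32.0%) were higher and 48 (28.4%) lower in knockout in both pairs, beside 29.6% and 24.9% of all 8704 regions. Opposite signs were seen in 38 (22.5%, higher at 1 h) and 29 (17.2%, lower at 1 h), beside 22.2% and 22.8%. All these shares were described and not tested.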

How the data were processed

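Chromatin accessibility was measured by ATAC-seq in 4 libraries, grouped by their titles. The authors deposited 1 peak list per library with GRCm38 in its peak names. The submitters' processing notes name Bowtie2 2.2.1 and MACS2 2.1.0, with no role or settings. Read shifting, duplicate removal, the handling of reads that match several places and any control: not given in the sources used here. A deposited list gives a score (about 10 times −log10 q, as a whole number), a fold enrichment ratio, −log10 p and −log10 q per peak, as the authors' caller wrote them. The 2 mitochondrial peaks per library were left out. Peaks that overlapped or touched were merged.

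Fold enrichment was read as (pileup + 1)/(background + 1). Together with the deposited p-value, taken as a Poisson tail, it gave the whole-number summit pileup and background, with a tolerance of 0.001 in −log10 p, for all but 1 peak per library. Pileups were taken as unscaled by the caller, which no source states. In a simulation of 8704 regions with 200 changed 4-fold, limma 3.58.1 (R 4.3.3) recovered 98.0% with 4 false calls. The simulated pileups had Poisson noise alone, with no further spread between replicates. A 4-fold change is larger than any found at the 169 regions (log2 -0.88 to 0.75), and recovery of smaller changes was not tested. Differences were fitted over all regions and adjusted by Benjamini-Hochberg at 0.05. Tables and exact tests were made with scipy 1.17.1, pandas 2.3.3 and numpy 2.4.6 under Python 3.11.15.

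Genes, starts and promoters came from RefSeq tables (GRCm38.p6). Clusters joined Zfp genes with gaps of at most 500 kb. Genes were named by strength, by genotype class, by the 6 highest and 6 lowest differences, by weakness, by role list and by membership of the 6 largest clusters. The genes, lists and tests were chosen with earlier results of these data known. Of the role lists, Zfp989 had no protein-coding entry. Part of the erythroid marker list is not reported here. Counts of fingers and domains in the proteins were planned and not run.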

Additional observations from a re-analysis of the deposited data

Results flagged for a closer look

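The genotype difference in the number of open Zfp genes had opposite signs at the 2 labelled times. Knockout replicate 1 had 6 more open Zfp genes than wild-type replicate 1 (1 h), while replicate 2 (2 h) gave a difference of -15. As a percentage of all open genes, the differences were 0.0446 percentage points at 1 h and -0.0859 at 2 h. With 1 library per genotype and time, the contrast between times was not tested. Over all protein-coding genes the same count differed by 97 at 1 h and -320 at 2 h, and wild-type replicate 1 had the lowest background, 73.0% of the highest. The part of depth in these differences was not tested.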

How the results depend on the processing

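The number of open Zfp genes stayed between 171 (all 4 libraries) and 252 under 11 alternatives, with 225 to 230 when 1 library was left out. The genotype difference in open genes ranged from -10 to 1 when 1 library was left out, positive without wild-type replicate 2 (0.5) and without knockout replicate 2 (1), and was negative under the other alternatives, among them -14 at −log10 q of at least 5. Knockout-only regions numbered 4 and became 2 under the same stricter q throughout and 7 with summits matched within 250 bp. Leaving out 1 library gave 5 to 13 (13 without wild-type replicate 2, 9 and 10 without knockout replicates 1 and 2). Wild-type-only regions numbered 6 and became 10 with matched summits and 9 to 16 with 1 library left out (16 and 14 without wild-type replicates 1 and 2, 14 without knockout replicate 1). With a library left out, fewer calls and fewer absences are needed by construction. Zfp regions past limma were 3 when scaled by lowest background, where 70 of all 8704 passed, and 0 otherwise. The difference of library medians was 0.019 for regions with −log10 q of at least 5 in all 4 libraries (exact permutation p = 1), against -0.037 in the report and -0.27 when scaled by lowest background. The cause was not tested. Requiring all 4 libraries lowered the open share in clusters to 41.8% and that outside to 44.9%, turning their order.

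Replicate numbers share a labelled time, but deviations of replicate 1 from the genotype means correlated at 0.00217 between genotypes over 8704 regions. With the replicate block 0 Zfp regions and 2 of all 8704 passed in limma. The count of open genes kept its difference of -4.5 (exact sign-flip permutation p = 1). The medians kept their -0.037 (exact sign-flip permutation p = 0.5). With 2 pairs of libraries the smallest p that this sign-flip test can give is 0.5, so it cannot show a difference. Of the 12 named differences, chosen for their size, the scaling by lowest background called 3. Read totals are unknown, and the weakest open genes rest on 8 to 10 fragments. The listed-start alternative was added after the data were seen. The planned protein alternative was not run.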

Other observations

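Neighbouring Zfp genes shared an open region in 6 cases, each at the ends of a pair. At Zfp786 and Zfp398 (chromosome 6, 47835565 to 47836142), Zfp784 and Zfp580 (chromosome 7, 5038045 to 5038800), Zfp942 and Zfp943 (chromosome 17, 21962141 to 21962873) and Zfp944 and Zfp758 (chromosome 17, 22361099 to 22361799) the region touched the starts of both genes. At Zfp78 and Zfp28 (chromosome 7, 6382992 to 6383588) it lay at the start of Zfp28 and the far end of Zfp78. The pair Zfp668 and Zfp646 shared the region at 127875616 to 127877196 on chromosome 7, at the start of Zfp668. The Zfp786 region was called in 3 libraries and the other 5 regions in all 4. Starts of these pairs are the outer bounds of the annotated genes. Relative to the nearest listed start, the summit lay at -5264 bp for Zfp786 and at -13165.5 bp for Zfp580.

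Of the 233 open genes, 14 had 2 regions and Zfp512b had 4. Zfp174 was open in all 4 libraries at both ends, with fold enrichments of 10.6, 11.8, 10 and 10.7 at the start and 9.26, 9.52, 10.8 and 9.06 at the other end, in the order wild-type replicates 1 and 2 and knockout replicates 1 and 2. At Zfp367 a strong region over the start (13.0, 11.3, 13.9 and 13.3) stood beside a weak one that was not called in knockout replicate 1. These genes were chosen after their values were seen.

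By chromosome, the open share of Zfp genes was lowest on X (2 of 9, 22.2%) and chromosome 4 (7 of 27, 25.9%), where 24.0% and 40.1% of all protein-coding genes were open. On chromosome 16 it was 5 of 5. Chromosome 7 held 93 Zfp genes, the most, with 62.4% open beside 32.8% of all its genes.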
